A study of Homo sapiens with 6 samples.

Results

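The genes described here encode the ESCRT machinery, the protein complexes that cut and reseal membranes from the inside of their necks. They were taken by symbol from a list covering ESCRT-0, ESCRT-I, ESCRT-II, ESCRT-III, the VPS4 ATPases and the ALIX branch. The list was chosen with earlier results of these data known. All 32 symbols matched a gene among the 65988 Ensembl identifiers counted, and 31 of the 32 passed the filter on low counts that left 16105 genes for testing. The study treated U87MG cells, an established human glioblastoma line, with vehicle (control, n = 3 libraries) or with 2 µM RSL3 (n = 3 libraries), and sequenced their RNA to look for factors that set the vulnerability of cells to ferroptosis. Ferroptosis is an iron-dependent death by lipid peroxidation, and RSL3 triggers it by inhibiting GPX4, the enzyme that reduces lipid hydroperoxides. No genetic change is given for either group, and the RNA was taken after 24 h, a time the sample labels do not state. The labels give replicate numbers but do not state that the libraries came from separate cultures, so p-values measure the spread between these libraries, which may be technical.

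ESCRT proteins were first known for sorting ubiquitin-tagged membrane proteins into the inner vesicles of late endosomes, and they also act in virus budding, in the last cut of cell division and in closing holes in the plasma membrane, lysosomes and nuclear envelope. The early complexes ESCRT-0, ESCRT-I and ESCRT-II recognise cargo and recruit the later ones, while ALIX with its calcium-binding partner ALG-2 offers a second route of recruitment, used when calcium enters through a wound. ESCRT-III subunits, mostly named CHMP, then polymerise into spiral filaments, and the ATPase VPS4 remodels and takes apart these filaments to finish the cut. ESCRT-III is also known to counteract the plasma membrane damage of ferroptosis.

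Total counts ranged from 27813462 to 43306335 per library, and the factors of edgeR's TMM normalization from 0.995 to 1.01. A gene was called differentially expressed at a Benjamini-Hochberg adjusted p under 0.05 in edgeR's quasi-likelihood F test over all 16105 genes, and log2 fold changes are positive for genes that were higher with RSL3, with SE their standard error. Counts were normalized to the mean library size and give shares of each library, so fewer cells and less RNA per cell cannot be told apart. The glioma-associated markers VIM and CD44 were abundant, at means of 68346 and 24712 normalized counts in control cells, and both were downregulated with RSL3, by log2 fold changes of -0.29 (edgeR adjusted p = 2.2e-08) and -0.39 (1.2e-08). NES, on the same marker list, was low, at 153 normalized counts in control cells. Its log2 fold change was 0.25 and did not pass the test (edgeR adjusted p = 0.203). The astroglial markers were low, with 105 normalized counts of GFAP in control cells and at most 1 read of S100B in any library. GFAP had a log2 fold change of 0.40 and did not pass the test either (edgeR adjusted p = 0.0726). PTPRC, PECAM1, EPCAM and RBFOX3, markers of leukocytes, endothelium, epithelium and neurons, had at most 23 reads in any library.

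The ESCRT genes as a group differed little between RSL3-treated and control cells. Of the 31 members tested, 8 were differentially expressed, 5 upregulated (VPS37B, SNF8, VPS37A, STAM2 and HGS) and 3 downregulated (MVB12B, CHMP3 and CHMP2A). That is 25.8% of the members tested, beside 25.6% of all genes tested, which include many genes of low count. Most members were well covered. Of the 29 with a mean normalized count of at least 500, 24.1% were differentially expressed. That is below the 38.1% of all genes at that depth, a level chosen after the data had been seen, and the difference was not tested. The members' median log2 fold change was 0.0053 and the median of its size regardless of sign was 0.048, while the corresponding values over all genes tested were -0.0044 and 0.136. The groups of libraries did not overlap in 9 of the 31 members, which is 4 higher and 5 lower, and in 38.6% of all genes tested. Of the 8392 genes with a mean normalized count of at least 500, they did not overlap in 4281. Only MVB12B among the members tested had a log2 fold change beyond 0.25 in size, and it was one of the least expressed. The number of upregulated members was 2 without control replicate 1 or RSL3 replicate 1, and 3 without control replicate 3 or RSL3 replicate 2. It was 3 with DESeq2 and 1 with DESeq2 and 2 surrogate variables.

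**Figure D1:**
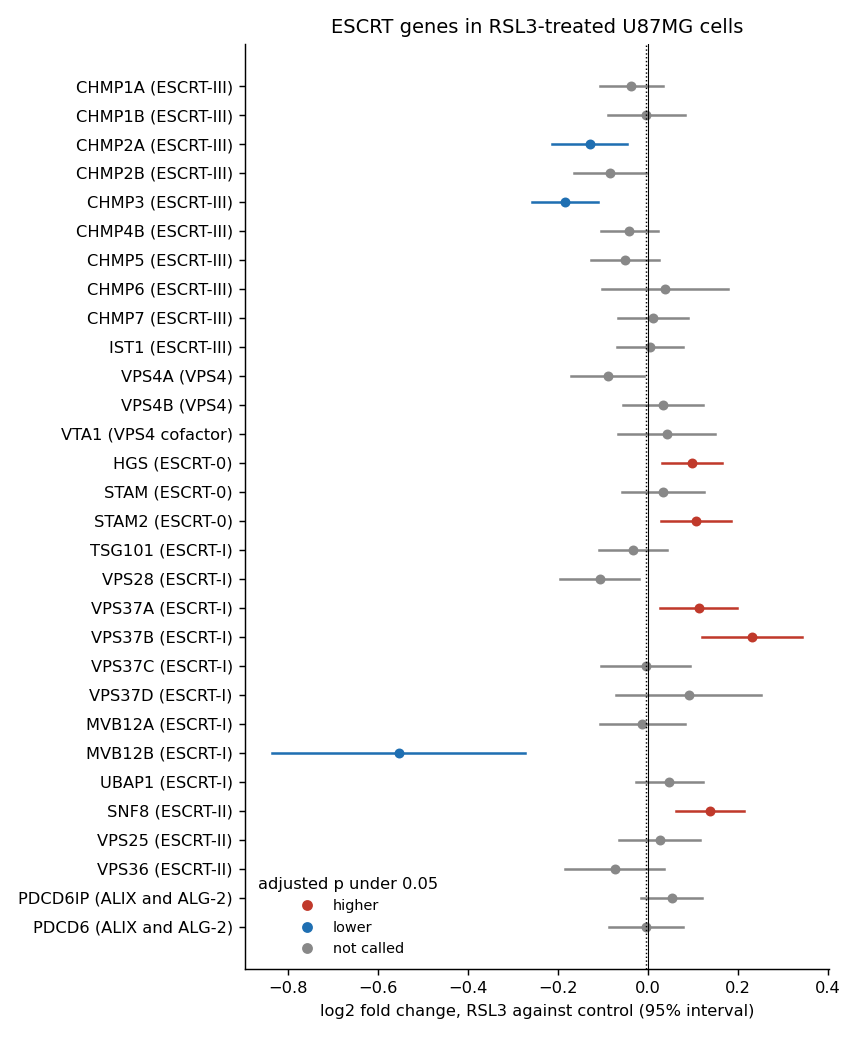
Log2 fold change of each ESCRT gene between RSL3-treated and control cells (horizontal axis, positive means higher with RSL3) with its 95% confidence interval, ordered by complex and coloured by call. The dotted line is the median of all genes tested, CHMP4A (interval -0.88 to 0.93) and CHMP4C (0 reads) are left out, and every gene shown except MVB12B lies between -0.18 and 0.23.

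Within ESCRT-III, 2 of 11 subunits tested were downregulated and 0 were upregulated, beside 12.7% and 12.9% of all genes tested. CHMP3 and CHMP2A, the subunits concerned, act late in the filament, where they assemble together and attract VPS4. Normalized counts of CHMP3 (ENSG00000115561, chr2:86503430-86563479, minus strand, GRCh38) were 4122, 4068 and 4130 in the control libraries and 3486, 3584 and 3772 in the RSL3-treated libraries. The control libraries lay close together and above every RSL3-treated library. The means were 4107 ± 33.5 and 3614 ± 145 (SD, n = 3 each), a log2 fold change of -0.18 (SE 0.036, adjusted p = 0.000497 by edgeR). Another annotated gene covers 12.2% of the exon bases of CHMP3, mainly the readthrough transcript RNF103-CHMP3, which itself had 9 to 21 reads per library.

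Counts of CHMP2A (ENSG00000130724, chr19:58551452-58555105, minus strand) were 4383, 4141 and 4009 in control libraries and 3982, 3864 and 3631 in RSL3-treated libraries after normalization. The groups did not overlap, although the lowest control library and the highest RSL3-treated library were nearly level. CHMP2A fell from 4178 ± 190 to 3825 ± 178 (SD, n = 3 each), a log2 fold change of -0.13 (SE 0.040, adjusted p = 0.0214 by edgeR). This call was lost when control replicate 1, RSL3 replicate 2 or RSL3 replicate 3 was left out, with an edgeR adjusted p of up to 0.138.

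The other 9 ESCRT-III subunits tested did not pass the test. CHMP4B, the main filament-forming subunit and the most abundant member by read count after ALIX, had 7080 ± 83.0 normalized counts in control cells and 6880 ± 128 in RSL3-treated cells, and the libraries overlapped. Its log2 fold change was -0.04, with a 95% confidence interval of -0.10 to 0.02. CHMP2B, the close relative of CHMP2A, had 3462 ± 123 and 3264 ± 129 normalized counts, a log2 fold change of -0.08 (edgeR adjusted p = 0.121). CHMP6, which joins ESCRT-II to CHMP4, and CHMP7, which works at the nuclear envelope, had log2 fold changes of 0.04 and 0.01. CHMP1A, CHMP1B, CHMP5 and IST1, which regulate or complete the filament, had values between -0.05 and 0.01, and all of these subunits overlapped between the groups.

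The CHMP4 paralogs were unequal in the reads counted for them. CHMP4A had only 9 to 20 reads per library, another annotated gene overlaps 69.2% of its exon bases, and its interval of -0.88 to 0.93 was too wide to show a change of the size seen elsewhere. CHMP4C, the paralog known for its role in timing the last step of cell division, had 0 reads in all 6 libraries and was not tested. Nearly all CHMP4 reads were thus counted for CHMP4B.

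Neither VPS4 ATPase was differentially expressed. Normalized counts of VPS4A were 2327, 2210 and 2237 in control libraries and 2103, 2142 and 2132 in RSL3-treated libraries. Every RSL3-treated library lay below every control library, but the log2 fold change of -0.09 did not pass the test (edgeR adjusted p = 0.104). Other annotated genes cover 44.9% of the exon bases of VPS4A, and the gene with the longest overlap, COG8 on the opposite strand, rose by 0.26 on the log2 scale (edgeR adjusted p = 0.00855). VPS4B overlapped between the groups, at 2566 ± 105 and 2624 ± 131 normalized counts. VTA1, the cofactor that activates VPS4, had 1230 ± 61.9 and 1264 ± 44.9 and overlapped too.

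**Figure D2:**
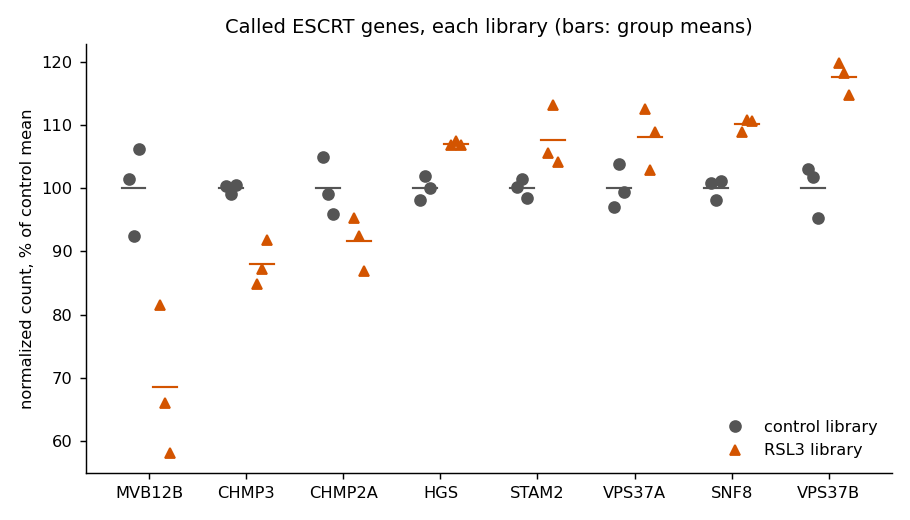
Normalized count of the 8 differentially expressed ESCRT genes in each library, as a percentage of the gene's control mean (vertical axis, not starting at 0). Circles are the 3 control libraries, triangles the 3 RSL3-treated libraries and bars the group means, and the groups are apart for every gene except VPS37A.

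In ESCRT-0, the endosomal complex that binds ubiquitinated cargo, 2 of 3 genes were upregulated, both by small amounts. Of all genes tested, 12.9% were upregulated, and of the 8392 with a mean normalized count of at least 500, 1651 were. HGS encodes HRS, the subunit that anchors the complex to endosomes through a phosphoinositide. HGS (ENSG00000185359, chr17:81683326-81703138, plus strand) had 4904, 5097 and 5002 normalized counts in control libraries and 5341, 5371 and 5344 in RSL3-treated libraries. The RSL3-treated libraries were nearly identical and all above the control libraries. Its mean went from 5001 ± 96.4 to 5352 ± 16.3 (SD, n = 3 each), a log2 fold change of 0.10 (SE 0.031, adjusted p = 0.0248 by edgeR). The call was lost without control replicate 1, RSL3 replicate 1 or RSL3 replicate 2 (adjusted p up to 0.0878) and with offsets for GC content (adjusted p = 0.127, both from edgeR).

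STAM and STAM2 are alternative partners of HRS. In control libraries STAM2 (ENSG00000115145, chr2:152116801-152175763, minus strand) had 3236, 3277 and 3184 normalized counts, and in RSL3-treated libraries 3412, 3658 and 3366. The groups did not overlap, with RSL3 replicate 2 the highest. The log2 fold change was 0.11 (SE 0.037, adjusted p = 0.0409 by edgeR), from 3232 ± 46.7 to 3479 ± 157 (SD, n = 3 each). Leaving out any single library other than RSL3 replicate 3 ended this call, with an edgeR adjusted p of up to 0.264, reached without RSL3 replicate 2. STAM overlapped between the groups, at 2215 ± 119 and 2267 ± 79.97 normalized counts.

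ESCRT-I held the largest changes in both directions, and both were in genes with interchangeable paralogs. The complex consists of TSG101, VPS28, 1 of 4 VPS37 proteins and 1 of MVB12A, MVB12B or UBAP1. Of its 9 genes, 2 were upregulated (VPS37B and VPS37A) and 1 was downregulated (MVB12B), beside 12.9% and 12.7% of all genes tested.

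VPS37B (ENSG00000139722, chr12:122865330-122896127, minus strand) had 1013, 1001 and 936 normalized counts in control libraries. In RSL3-treated libraries it had 1177, 1162 and 1128. All RSL3-treated libraries were above all control libraries, by more than the spread within either group. The mean rose from 983 ± 41.3 to 1156 ± 25.02 (SD, n = 3 each), a log2 fold change of 0.23 (SE 0.053, adjusted p = 0.00242 by edgeR), the largest increase among the members. Other annotated genes cover 38.02% of its exon bases, and the largest of them, on the same strand, had 7 to 21 reads per library. MVB12B (ENSG00000196814, chr9:126326829-126507041, plus strand) had 222, 202 and 232 normalized counts in control libraries and 178, 144 and 127 in RSL3-treated libraries. The groups were well apart, though the RSL3-treated libraries were spread more widely. It fell from 219 ± 15.4 to 150 ± 26.1 (SD, n = 3 each), a log2 fold change of -0.55 (SE 0.135, adjusted p = 0.00402 by edgeR), the largest change of any member. None of its exon bases is shared with another annotated gene.

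The promoters of VPS37B and MVB12B are shown because these members had the largest changes in either direction. Each is the 250 bases before the gene's start in RefSeq (GRCh38.p14), read 5′ to 3′ on the gene's own strand, and capitals mark matches to any of 4 motifs searched on both strands.
VPS37B promoter, chr12:122896125-122896374, minus strand: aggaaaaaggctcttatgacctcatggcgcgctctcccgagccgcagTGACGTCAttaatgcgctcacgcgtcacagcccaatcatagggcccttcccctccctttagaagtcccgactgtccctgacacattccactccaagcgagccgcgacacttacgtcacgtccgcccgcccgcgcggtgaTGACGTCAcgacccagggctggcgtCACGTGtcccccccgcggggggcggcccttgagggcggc
MVB12B promoter, chr9:126326579-126326828, plus strand: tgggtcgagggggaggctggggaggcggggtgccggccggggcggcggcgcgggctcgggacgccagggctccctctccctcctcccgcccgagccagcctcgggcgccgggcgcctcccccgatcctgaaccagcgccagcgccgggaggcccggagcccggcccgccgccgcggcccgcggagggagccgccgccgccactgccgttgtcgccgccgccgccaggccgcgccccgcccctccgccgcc
The capitals in VPS37B are 2 matches to TGACGTCA, the cyclic AMP response element, which 1.65% of 35116 promoter windows hold, and 1 match to CACGTG, the E-box core of lysosomal gene promoters, held by 6.34%. The MVB12B window has no match to any of the motifs. Windows were at hand for 25 of the 32 members. TGACGTCA was in 3 of them (CHMP1B, UBAP1 and VPS37B), CACGTG in 4 (CHMP4A, PDCD6IP, VPS36 and VPS37B) and the antioxidant response element TGACNNNGC, held by 10.9% of all windows, in 2 (CHMP5 and VTA1). TGATGCAA, an element bound by ATF4, was in 0 of the 25 and in 0.772% of all windows. The motif matches overlap no other motif's match in these windows, and a match is only a match of letters.

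VPS37A is the VPS37 paralog lost in some liver cancers, and among the 8 differentially expressed members it was the 1 whose groups overlapped. VPS37A (ENSG00000155975, chr8:17246931-17302427, plus strand) had 2464, 2637 and 2524 normalized counts in control libraries and 2860, 2615 and 2767 in RSL3-treated libraries. RSL3 replicate 2 lay below control replicate 2. The log2 fold change was 0.11 (SE 0.041, adjusted p = 0.0464 by edgeR), and the call was lost without control replicate 1 or 3 or RSL3 replicate 1 or 3, with an adjusted p of up to 0.216. MTMR7 on the opposite strand covers 27.4% of its exon bases and had 74 to 136 reads per library.

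The remaining ESCRT-I genes did not pass the test. TSG101, the subunit that binds ubiquitin and the short motifs used by budding viruses, had 3195 ± 47.3 normalized counts in control cells and 3122 ± 95.2 in RSL3-treated cells. VPS28, which links ESCRT-I to ESCRT-II, came closest, at 2686 ± 122 and 2500 ± 108 (log2 fold change -0.11, edgeR adjusted p = 0.0705). It passed the threshold with offsets for GC content (edgeR adjusted p = 0.0154), without control replicate 2 (0.0338) and without RSL3 replicate 1 (0.035). VPS37C, VPS37D, MVB12A and UBAP1 had log2 fold changes between -0.01 and 0.09, and all of them overlapped between the groups.

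In ESCRT-II, the bridge between ESCRT-I and ESCRT-III, SNF8 was upregulated and the other subunits were not. Normalized counts of SNF8 (ENSG00000159210, chr17:48929316-48944842, minus strand) were 2530, 2461 and 2534 in control libraries and 2732, 2780 and 2774 in RSL3-treated libraries. The groups were tight and well apart. SNF8 rose from 2508 ± 41.3 to 2762 ± 25.97 (SD, n = 3 each), a log2 fold change of 0.14 (SE 0.036, adjusted p = 0.00652 by edgeR). VPS25, which contacts CHMP6, had 1651 ± 18.8 and 1684 ± 58.0 and overlapped. VPS36, the subunit that binds ubiquitin and lipid, had 1007, 1020 and 998 normalized counts in control libraries and 967, 970 and 938 in RSL3-treated libraries. All 3 RSL3-treated libraries were lower, but the log2 fold change of -0.07 did not pass the test (edgeR adjusted p = 0.354).

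The calcium-responsive branch was not differentially expressed. PDCD6IP, which encodes ALIX, had the highest read count of all members, at 7927 ± 37.1 normalized counts in control cells and 8225 ± 321 in RSL3-treated cells. The libraries overlapped, since RSL3 replicate 3 was lower than the control libraries, and the edgeR adjusted p was 0.257. PDCD6, which encodes the calcium sensor ALG-2, had 2545 ± 66.6 and 2538 ± 102, a log2 fold change of -0.0038.

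Failing the test does not show that a gene was the same in both groups, so the intervals set the limits. Over the 22 members that were not differentially expressed, CHMP4A left out, the 95% confidence intervals lay within -0.19 and 0.25 on the log2 scale, that is within a decrease of 12.6% and an increase of 19.05%. Intervals were narrow for abundant genes such as CHMP4B, and the upper bound of 0.25 belonged to VPS37D, which had 544 ± 39.1 normalized counts in control cells.

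ESCRT-III and VPS4 were set against the upstream complexes, which are ESCRT-0, ESCRT-I, ESCRT-II, ALIX and ALG-2. VTA1 was put in neither class. Of the 13 ESCRT-III and VPS4 genes tested, 0 were upregulated and 2 downregulated, and of the 17 upstream genes, 5 were upregulated and 1 downregulated. The background was 12.9% of all genes upregulated and 12.7% downregulated. Among the 8392 genes with a mean normalized count of at least 500, 1651 were upregulated and 1547 downregulated, 38.1% in all. All tested genes of both classes except MVB12B and CHMP4A reached that level. The called share was 35.3% of the upstream genes, near that background, and 15.4% of the ESCRT-III and VPS4 genes. The median log2 fold change was -0.036 for ESCRT-III and VPS4, with 5 values above 0 and 8 below, and 0.034 for the upstream genes, with 10 above and 7 below. Either median is a change of only a few percent. The genes of a class are not replicates, so no p is given for the difference of -0.07 between the medians.

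The same contrast can be read in each library, as the median of the ESCRT-III and VPS4 genes minus the median of the upstream genes, each gene being taken on a log2 scale relative to its own mean over the 6 libraries. This difference was 0.018, 0.054 and 0.035 in control libraries and -0.035, -0.075 and -0.0014 in RSL3-treated libraries. Every control library was above every RSL3-treated library, with control replicate 1 and RSL3 replicate 3 the closest, and the SD within groups was 0.029. Each gene was centred on the same 6 libraries, so the side of 0 on which a group lies carries no information. These values restate the difference of -0.07 between the medians and are not separate evidence. For single genes, the groups did not overlap in 38.6% of all genes tested. The class medians taken separately overlapped between the groups. For ESCRT-III and VPS4 they were 0.026, 0.032 and -0.0067 in control libraries and 0.0071, -0.029 and -0.014 in RSL3-treated libraries. For the upstream genes they were 0.0079, -0.021 and -0.042, against 0.042, 0.045 and -0.012. This overlap is of class medians, not of summed levels.

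**Figure D3:**
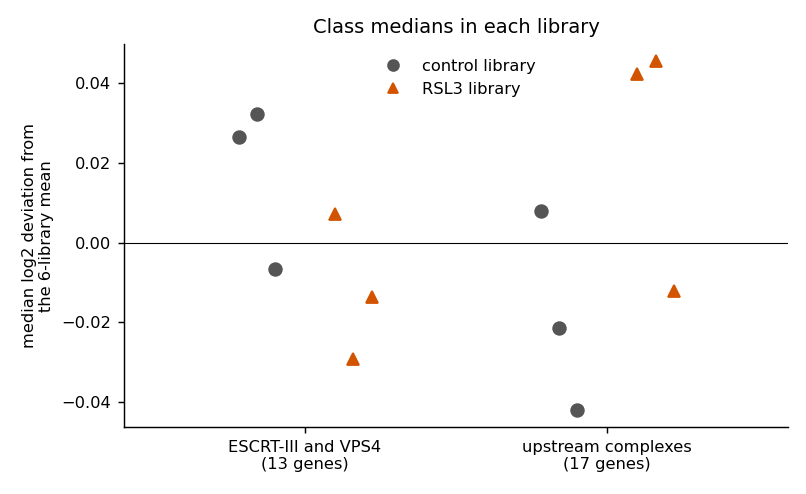
Median log2 deviation from each gene's mean over the 6 libraries (vertical axis) for the 13 ESCRT-III and VPS4 genes and the 17 upstream genes, in each control library (circles) and RSL3-treated library (triangles). Within each class the control and RSL3-treated libraries overlap.

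Levels of different members were compared as CPM (counts scaled to the library total) per kilobase of exon. CHMP4B was highest in control cells at 130 ± 1.52 CPM per kb (SD, n = 3), followed by CHMP5 at 59.7 ± 2.99, UBAP1 at 47.7 ± 2.05, CHMP2A at 33.5 ± 1.52 and CHMP1B at 29.2 ± 1.598. At the low end stood VPS37B at 5.11 ± 0.215, VTA1 at 4.97 ± 0.2501, VPS36 at 4.05 ± 0.0453, MVB12B at 0.811 ± 0.0571 and CHMP4A at 0.180 ± 0.0641. VPS37B and VTA1 did not differ beyond their spread. Using only exon bases that no other gene covers, the level of VPS37B was 8.25 and that of VPS4A moved from 11.7 to 21.2 CPM per kb, so the order of genes with shared exons is uncertain. By the same measure CHMP4A moved from 0.180 to 0.585 CPM per kb. The levels of the ESCRT-III and VPS4 genes together summed to 366 ± 5.69 CPM per kb in control cells and 355 ± 3.62 in RSL3-treated cells, with the lowest control library at 359.9 and the highest RSL3-treated library at 358.8. The levels of the ESCRT-III genes alone summed to 337 ± 4.88 CPM per kb in control cells and 326 ± 3.60 in RSL3-treated cells. The lowest control library, at 331.7, was above the highest RSL3-treated library, at 330.1. Both gaps were narrow beside these SDs, and the groups did not overlap in 38.6% of all genes tested either. CHMP4B, which was not differentially expressed, made up 130 of the 337 CPM per kb. The upstream genes summed to 265 ± 3.73 and 272 ± 4.24 and overlapped between the groups, as did the sum over all members, at 636 ± 8.47 and 632 ± 6.29.

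**Figure D4:**
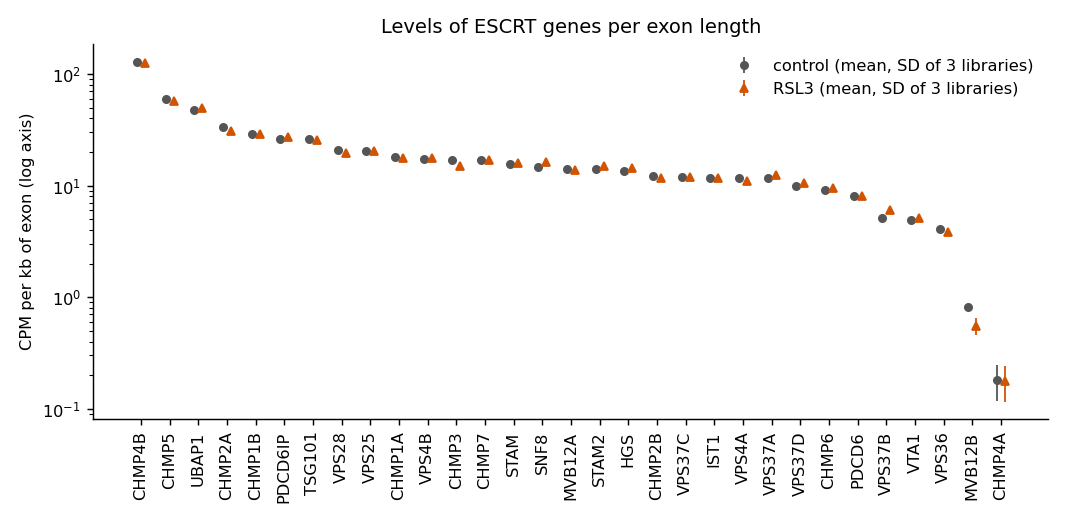
Level of each ESCRT gene in control and RSL3-treated cells as CPM per kilobase of exon (vertical log axis), with points for the mean of 3 libraries and bars for the SD. Levels in control cells run from 0.180 for CHMP4A to 130 for CHMP4B, and CHMP4C, with 0 reads, is left out.

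Proportions among the alternative ESCRT-I subunits were taken from the same levels. MVB12B made up 1.26%, 1.22% and 1.41% of the summed level of MVB12A, MVB12B and UBAP1 in control libraries and 1.03%, 0.823% and 0.758% in RSL3-treated libraries. The groups did not overlap, and UBAP1 had the largest share of the 3 in both, at 76.3% ± 0.326 and 77.4% ± 0.372 (SD, n = 3 each). These are shares of RNA levels, not of protein. VPS37B made up 13.4%, 13.7% and 12.7% of the summed VPS37 level in control libraries and 14.6%, 14.98% and 14.3% in RSL3-treated libraries, again without overlap. The share of VPS37A, also differentially expressed, was 28.6%, 31.6% and 30.04% in control libraries and 31.2%, 29.6% and 30.8% in RSL3-treated libraries, and the groups overlapped. The shares of CHMP1B among the CHMP1 genes, CHMP2B among the CHMP2 genes, VPS4B among the VPS4 genes and STAM2 among the STAM genes overlapped between the groups. These shares were built from genes already described and are not separate evidence.

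Proteins that work with ESCRT were read from a list of 20 further genes, all of which were tested. Of these, 6 were upregulated and 2 downregulated, which is 40% beside the 25.6% of all genes and the 38.1% of genes with a mean normalized count of at least 500, a level that all of them except CEP55 reached. The share is therefore near the background at that depth. The list's median log2 fold change was 0.037. Without RSL3 replicate 2, 5 of the 20 were differentially expressed. LEMD2, the inner nuclear membrane protein that recruits CHMP7, had 1504, 1577 and 1565 normalized counts in control libraries and 1830, 1928 and 1767 in RSL3-treated libraries. All RSL3-treated libraries were higher, and the log2 fold change was 0.25 (SE 0.05, adjusted p = 0.000246 by edgeR). The deubiquitinases that act on ESCRT cargo rose as well, USP8 by 0.16 (edgeR adjusted p = 0.000792), STAMBP by 0.17 (0.00507) and STAMBPL1 by 0.34 (0.00123) on the log2 scale. STAMBP and USP8 bind STAM. The downregulated genes were SDCBP, which encodes the ALIX partner syntenin, at -0.13 (edgeR adjusted p = 0.000601), and SPAST, the microtubule-severing ATPase that binds CHMP1B and IST1, at -0.19 (0.0116).

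Plasma membrane repair also uses proteins outside ESCRT, and this list was mostly downregulated. Of 20 genes, 19 were tested (TRIM72 was too low), 12 were downregulated and 2 upregulated, which is 73.7% beside the 25.6% of all genes, and the median log2 fold change was -0.19. Genes with a mean normalized count of at least 500 were called more often than genes of any count, at 38.1%. MYOF, the dysferlin relative myoferlin, had 20540, 21881 and 21568 normalized counts in control libraries and 17756, 17897 and 18110 in RSL3-treated libraries. These groups were far apart, with a log2 fold change of -0.25 (SE 0.03, adjusted p = 1.41e-06 by edgeR). The calcium-dependent membrane-binding annexin ANXA6 fell by 0.26, the caveolar ATPase EHD2 fell by 0.24 and the protease CAPN1 fell by 0.19 on the log2 scale, with an edgeR adjusted p of at most 6.19e-05. In the other direction, ANXA1 rose from 51048 ± 632 to 62818 ± 2944 normalized counts (SD, n = 3 each), a log2 fold change of 0.30 (edgeR adjusted p = 1.68e-07), and the protease CAPN2 rose by 0.09 (adjusted p = 0.0117). VIM and CD44 were lower with RSL3 too, as given above, and their part in the result was not tested. A difference between the lists was not tested, and the lists were chosen with earlier results of these data known.

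**Figure D5:**
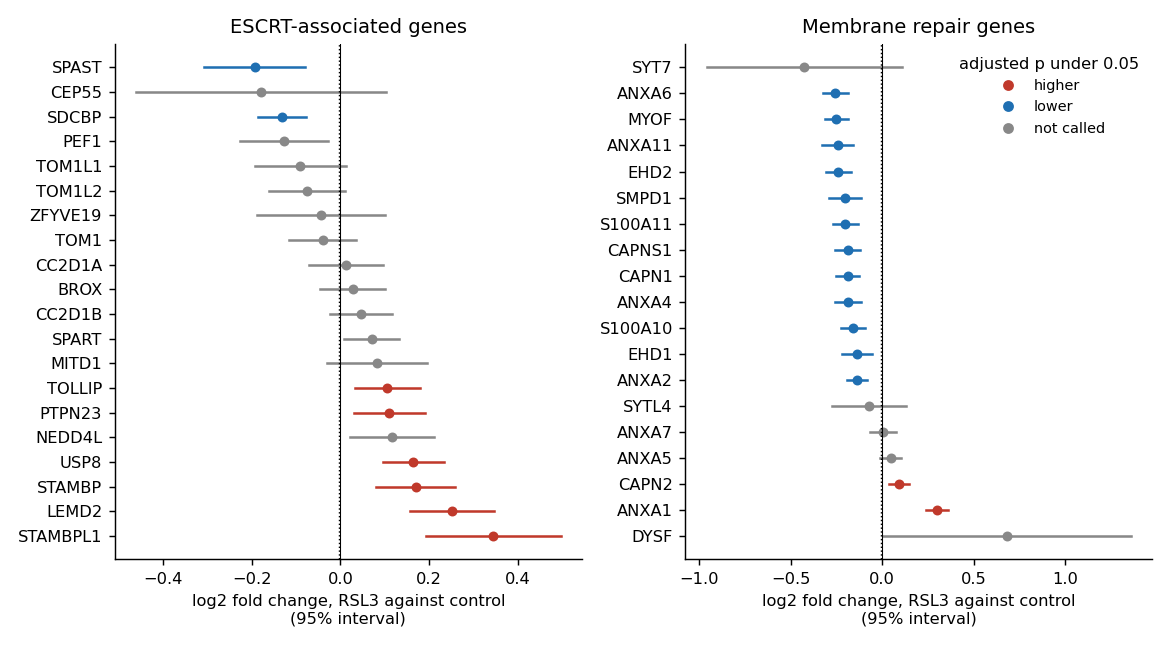
Log2 fold change (horizontal axis, RSL3 against control) with its 95% confidence interval for the tested genes of the ESCRT-associated list (left) and the membrane repair list (right), coloured by call, with the dotted line at the median of all genes tested. On the left 6 genes are upregulated and 2 downregulated, and on the right 2 are upregulated and 12 downregulated.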

How the data were processed

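RNA of U87MG cells was sequenced as 3 control and 3 RSL3-treated libraries. The authors checked the reads with FastQC 0.11.5, trimmed them with Trimmomatic 0.36 and Fastp, aligned them to GRCh38 with HISAT2 and counted them on exons without regard to strand with HTSeq 0.6.1p1. The deposited values are raw counts per Ensembl gene and library, without normalization. The release of the annotation is not given in the sources used here, and overlaps of exons come from GENCODE v44.

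Counts were analysed here in R 4.3.3 with edgeR 4.0.16: filterByExpr with a minimum count of 10, TMM, and its quasi-likelihood test, adjusted by Benjamini-Hochberg over all genes, with a threshold of 0.05, without covariates. Totals ranged from 27813462 to 43306335 counts (median 33575028), and the common dispersion was 0.00171. The scripts were tested on simulated data. The standard error was taken from the fold change and F. Symbols were matched through a table of gene names.

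The study used DESeq2 after surrogate variable analysis with the number of variables not given, so DESeq2 1.42.0 with 0, 1 or 2 surrogate variables from sva 3.50.0 was an alternative. Others were DESeq2's size factors, no filter, the replicate number as a block, GC content offsets, both together, each library left out, and a threshold of 0.01.

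All 32 members are named, with the value in every library for those with an adjusted p under 0.05 and for VPS4A and VPS36, added because their groups did not overlap. In the other lists the up to 4 called genes of smallest p are named for each direction. The members, lists and motifs were chosen with earlier results of these data known. Replicate numbers were not used as pairs in the main fit. Same-numbered libraries correlated at 0.022, 0.027 and 0.074 in their deviations from the group means. Libraries of different number correlated at -0.051 to 0.024. Correlations this weak cannot settle whether the libraries were paired. Counts of replicates differed by more than sampling noise, so no library was counted as a repeat sequencing of another, which does not show that the cultures were separate.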

Additional observations from a re-analysis of the deposited data

How the results depend on the processing

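With 3 libraries a group, the smallest changes called among the members, about 0.1 on the log2 scale, lie at the edge of the test. CHMP3, MVB12B and VPS37B kept their direction and their call in all 14 refits, with an adjusted p of at most 0.00685, 0.0395 and 0.0486, and SNF8 lost its call only with DESeq2 and 2 surrogate variables (adjusted p = 0.0768). CHMP2A kept its call in 9 of the 14, HGS in 8, VPS37A in 7 and STAM2 in 6, and the cause was not tested. Shared exons limit VPS4A and CHMP4A, and depth limits CHMP4A.

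The number of upregulated members, 5 with edgeR, was 3 with DESeq2 without surrogate variables, 3 with 1 and 1 with 2, was 2 at an adjusted p under 0.01, and ranged from 2 to 4 with each library left out. With 2 surrogate variables 2268 of all genes and 5 ESCRT-associated genes were called, beside 4123 and 8, and the cause was not tested. With each library left out, where the smaller group has 2 libraries, the called ESCRT-associated genes numbered 5 to 9, and the difference between the ESCRT-III and VPS4 median and the upstream median ranged from -0.10 to -0.057. The number of downregulated members ranged from 2 to 4 over all refits, and that of called membrane repair genes from 12 to 15 with each library left out.

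With the replicate number as a block, 4633 genes were called, and 5 members were upregulated and 4 downregulated, VPS28 being the addition (log2 fold change -0.10, adjusted p = 0.0299). RSL3 replicate 1 correlated about as well with control replicate 2 (0.024) as with its own number (0.022). With the block and GC content offsets together, PDCD6IP was called too (log2 fold change 0.09, adjusted p = 0.0165) and HGS was not (0.08, adjusted p = 0.0596).

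The members whose log2 fold change changed sign were all uncalled. CHMP1B was 6.8e-05 with DESeq2, 0.0016 with 1 surrogate variable, 0.025 with GC content offsets and 0.027 with block and offsets. PDCD6 was 0.00060 with the offsets and 0.0020 with block and offsets, VPS37C was 0.0057 with 2 surrogate variables and CHMP4A was -0.0072 with 1. With each library left out, the log2 fold change ranged from -0.045 to 0.029 for CHMP1B, from -0.30 to 0.28 for CHMP4A, from -0.011 to 0.022 for IST1, from -0.035 to 0.030 for VPS37C and from -0.042 to 0.014 for MVB12A. It ranged from -0.032 to 0.026 for PDCD6, from -0.0024 to 0.042 for CHMP7, from -0.0055 to 0.066 for STAM and from -0.0010 to 0.069 for VPS4B. Counting only unshared exon bases moved the level per length of 15 members, and counting VTA1 with ESCRT-III and VPS4 gave a difference of -0.054, beside -0.07.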
